A study of Homo sapiens with 12 samples.

Results

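The genes described here encode the initiation, elongation and release factors of translation. They were chosen by name, as a list of 41 Ensembl gene IDs paired with their symbols, and all 41 were found among the 18569 gene IDs of the series, with 7154 of its 842183 positions. Internal m7G was mapped in LNCaP-AI cells, a castration-resistant prostate cancer line derived from LNCaP that is labelled as under androgen deprivation therapy in every group. One group carried shMETTL1, labelled as a METTL1 knockdown, and the control group shscramble. Each group had 3 replicates and each replicate had an AlkAniline-Seq library and an input library. Both groups express an shRNA, so the parental line without one is no part of the comparison. Neither METTL1 itself nor prostate markers could be looked up, because the deposited values carry gene IDs and no table used here pairs other IDs with symbols.

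METTL1 places m7G in tRNA and at internal sites of other RNAs, while the m7G cap that eIF4E binds is made by other enzymes. In AlkAniline-Seq the RNA is broken chemically at m7G and at a few other modified bases, and an adapter is joined to the ends so made, which gathers reads at the broken sites. In translation, eIF4F (the cap-binding eIF4E, the scaffold eIF4G and the helicase eIF4A) and eIF3 bring the small ribosomal subunit to the mRNA, eIF2 delivers the initiator tRNA, eEF1A and eEF2 drive elongation, and eRF1 and eRF3 end it. Many mRNAs of the translation machinery start with a C and a run of pyrimidines, the terminal oligopyrimidine or TOP start, through which mTOR signalling controls how well they are translated.

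The start sites of these genes are shown because the TOP start is a feature that the choice of the genes did not use. RefSeq start sites on GRCh38.p14 were matched by symbol for 31 of the 41 genes, and 11 of them had at least 1 start with a C at the first transcribed base followed by at least 4 bases that were each C or T, read on the strand of the gene. These 11 were EEF1A1, EEF1B2, EEF2, EIF4A2, EIF4B, EIF3D, EIF3F, EIF3K, EIF3M, EIF2S3 and EIF2A. They make up 35.5% of the matched genes, against 5.14% of all 27305 genes in the table. The 10 genes without a match were PABPC1, EEF1A2, EEF1D, EIF4EBP1, EIF3A, EIF3E, EIF3G, EIF3H, EIF3L and EIF2S2. Whether these have a TOP start was not looked up. Windows of 15 bases on each side of the start are printed below 5′ to 3′, with the C and its pyrimidine run in capitals. The first 6 hold a TOP start and the last pair, EIF4A1 and EIF4H, do not.
EEF1A1: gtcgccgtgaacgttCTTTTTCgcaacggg
EEF2: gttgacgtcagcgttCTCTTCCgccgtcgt
EIF4A2: gttgggcgccgctgtCTTTTCagtcgggcg
EIF4B: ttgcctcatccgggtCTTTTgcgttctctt
EIF3F: ttccgcttccgcctcCTTCTTTCTCgacaa
EIF2A: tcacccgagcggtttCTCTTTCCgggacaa
EIF4A1: aggcgggcactccgccctagtttctaagga
EIF4H: ccttcctcgctcaccctggttcctctcgga
The windows lie at chr6:73521018-73521047 on the minus strand for EEF1A1, at chr19:3985449-3985478 on the minus strand for EEF2, and on the plus strand at chr3:186783562-186783591 for EIF4A2, chr12:53006441-53006470 for EIF4B, chr11:7987322-7987351 for EIF3F, chr3:150546772-150546801 for EIF2A, chr17:7572810-7572839 for EIF4A1 and chr7:74174341-74174370 for EIF4H. These are annotated starts and were not measured in LNCaP-AI cells.

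Read counts over all genes summed to 1421551 to 2764417 in the AlkAniline-Seq libraries and to 2783709 to 3258499 in the input libraries. The translation factor genes held 1.43% to 1.58% of the AlkAniline-Seq reads and 1.24% to 1.49% of the input reads. Shscramble replicate 1 stood apart at their positions. Of 158 positions with at least 50 reads in shscramble replicate 2 and 0 or 1 read in replicate 3, all 158 had a read in replicate 1, at a median of 11.3% of the count in replicate 2. The same held at all 61 positions deep in replicate 3 and not in replicate 2, at a median of 15.1%. For shMETTL1 replicate 1, the matching counts were 71 of 186 and 51 of 147 positions, both with a median of 0%. Standard errors and p-values below treat the 3 shscramble replicates as independent, and whether replicate 1 shares reads with the other two was not tested. The AlkAniline-Seq values of the genes with the clearest differences are therefore also given without shscramble replicate 1. The labels do not say whether replicates were separate cultures or transductions, so p-values measure the spread between these libraries.

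The first question was whether AlkAniline-Seq reads of these genes differed with the knockdown. All 41 genes were tested within a fit over 11097 genes, and none was called at an adjusted p under 0.05 by edgeR's quasi-likelihood test, against 1 gene called in all (0.00901%). At an unadjusted p under 0.05, EIF4G3 and EIF2A were lower in shMETTL1 and no gene was higher, 2 of 41 against 6.97% of all genes. The median log2 fold change of the 41 was 0.04, against 0.07 for all genes, with 23 of the 41 above 0, against 52.9% of all genes. Scaling by library size alone turned the direction of both medians (-0.08 and -0.02, with 17 of the 41 above 0, against 49.0% of all genes). Groups of libraries did not overlap, lower in shMETTL1, for EEF1G, EIF4A1, EIF4G3, EIF4H, EIF3M and EIF2A, 6 of 41 against 7.38% of all genes, and did not overlap in the higher direction for 0 of 41, against 7.1%. On library size alone these counts were 9, against 8.43% of all genes, and 0, against 6.2%. The edgeR fit estimated a common biological coefficient of variation of 0.90 over all genes. In simulated counts of 10602 genes it recovered 1 of 47 tested genes at a fold of 2, 15 of 47 at a fold of 8 and 26 of 48 at a fold of 16. The changed genes were drawn from all genes, so these rates do not describe the 41 as a set. Standard errors of the 41 ran from 0.23 (EEF2) to 1.44 (EIF4E).

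**Figure D1:**
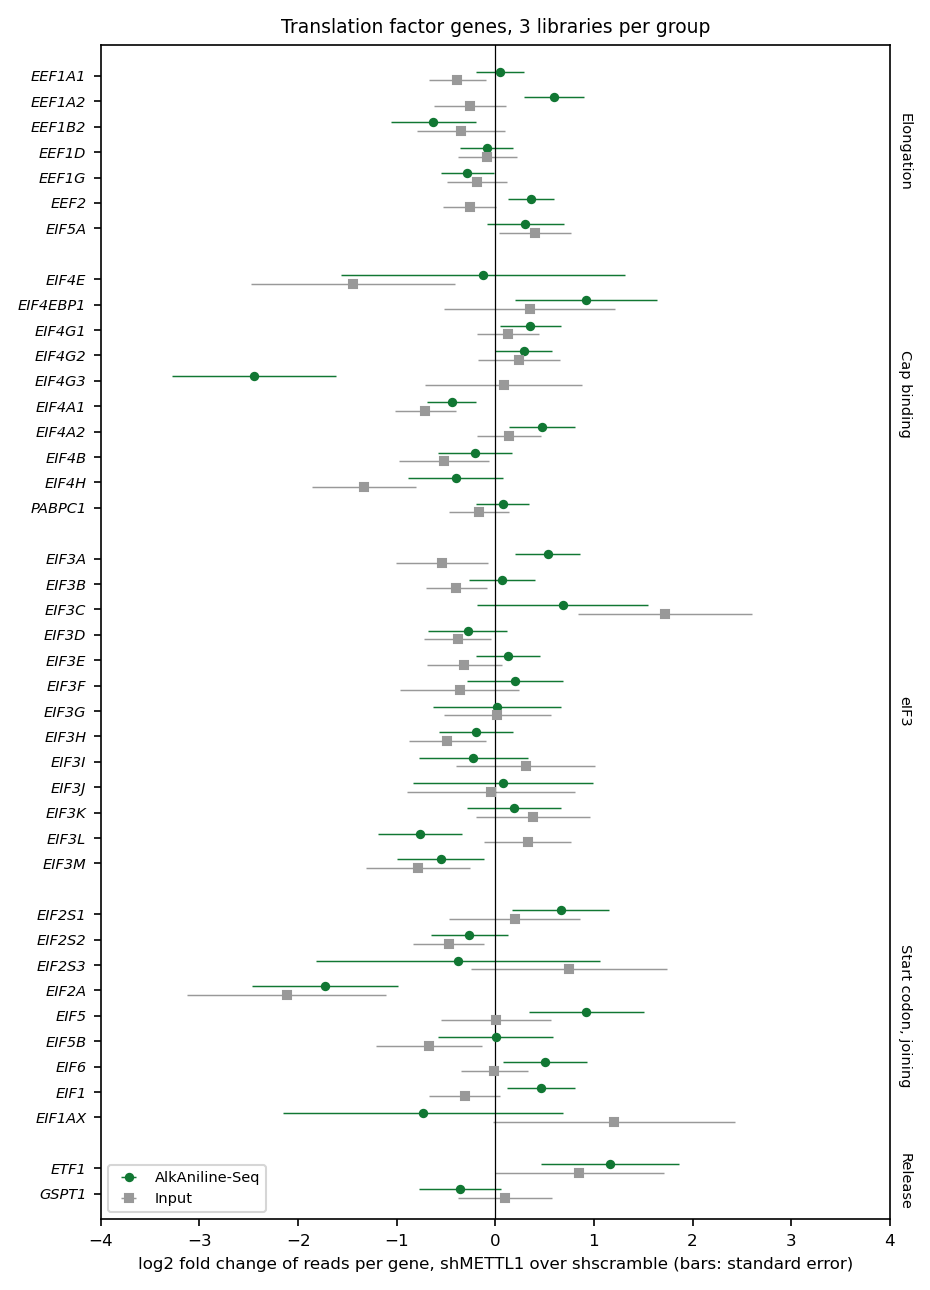
Log2 fold change of reads per gene, shMETTL1 over shscramble (horizontal axis), for the 41 translation factor genes grouped by role (vertical axis), in AlkAniline-Seq (circles) and input (squares), with standard errors as bars. EIF4G3 at -2.44 and EIF2A at -1.73 lie farthest below 0 in AlkAniline-Seq, and EIF2A also lies low in the input, at -2.11.

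Among the 7 elongation genes, AlkAniline-Seq log2 fold changes ran from -0.63 (EEF1B2, an exchange factor of eEF1A) to 0.60 (EEF1A2), with a median of 0.04 and none past an unadjusted p of 0.05. EEF1A1 (ENSG00000156508), which carries aminoacyl-tRNA to the ribosome, was at 1169, 1099 and 936 CPM (counts scaled to library size after TMM scaling) under shscramble and 1204, 1128 and 973 under shMETTL1. The groups overlapped throughout, and the log2 fold change of 0.04 (standard error, SE, 0.24) turned below 0 on library size alone. EEF1A2 (ENSG00000101210), the form of eEF1A found mainly in muscle and nerve, was at 990, 583 and 617 CPM in shscramble and 1388, 1189 and 735 in shMETTL1. The lowest shMETTL1 library lay inside the shscramble range, and the log2 fold change was 0.60 (SE 0.31, adjusted p = 0.76 by edgeR). EEF2 (ENSG00000167658), the GTPase of translocation, was at 1351, 1592 and 1487 CPM in shscramble and 1836, 2299 and 1551 under shMETTL1, with a log2 fold change of 0.36 (SE 0.23, adjusted p = 0.84 by edgeR). One of its shMETTL1 libraries also fell inside the shscramble range, and without shMETTL1 replicate 2 the value was 0.21. EEF1G (ENSG00000254772), the scaffold of the exchange complex, was named after its values were seen. It was at 745, 737 and 963 CPM against 707, 694 and 605, groups that did not overlap, with a log2 fold change of -0.28 (SE 0.27, adjusted p = 0.93 by edgeR). EIF5A (ENSG00000132507), the hypusinated factor that helps stalled ribosomes on, had a log2 fold change of 0.30 (SE 0.39), which was 0.039 without shMETTL1 replicate 1.

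The 10 genes of cap binding and unwinding held the lowest value. EIF4G3 (ENSG00000075151), the second eIF4G scaffold, had 115, 422 and 179 AlkAniline-Seq reads under shscramble and 60, 23 and 73 under shMETTL1. In CPM these were 63.2, 158 and 127 against 23.4, 9.3 and 31.2, so that every shscramble library was above every shMETTL1 library. The log2 fold change was -2.44 (SE 0.83, unadjusted p = 0.0094, adjusted p = 0.53 by edgeR). With DESeq2 the adjusted p was 0.0499, and EIF4G3 was the 1 gene of the 41 that it called, against 1.6% of all genes. Without shscramble replicate 1 the log2 fold change was -2.75 (adjusted p = 0.95 by edgeR). With replicates left out in turn it ran from -2.805 to -2.072. Without shscramble replicate 2, the library of 422 reads, none of the 41 genes had an unadjusted p under 0.05 by edgeR. EIF4G3 kept such a p when any other replicate was left out. In the input EIF4G3 had 131, 161 and 83 reads in shscramble and 251, 150 and 139 in shMETTL1, with no separation of the groups.

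EIF4A1 (ENSG00000161960), the main helicase of eIF4F, was lower in every shMETTL1 library. It was at 1040, 1103 and 1070 CPM in shscramble and 871, 797 and 695 under shMETTL1, with a log2 fold change of -0.44 (SE 0.25, adjusted p = 0.77 by edgeR), or -0.47 without shscramble replicate 1. With the position with the most reads left out of every gene and the libraries rescaled, the log2 fold change was -0.014 (SE 0.285). Leaving out the position of EIF4A1 alone was not tested. Its close relative EIF4A2 was at 477, 650 and 645 CPM against 516, 663 and 1281, where the highest library was a single shMETTL1 library. EIF4H (ENSG00000106682), a cofactor of eIF4A, was at 148, 140 and 193 CPM against 108, 126 and 131. These groups did not overlap either, with a log2 fold change of -0.40 (SE 0.48, adjusted p = 0.95 by edgeR), or -0.46 without shscramble replicate 1 and -0.22 without replicate 3. EIF4G1 (ENSG00000114867), the main scaffold, was at 0.36 (SE 0.31), from 0.098 without shMETTL1 replicate 2 to 0.58 without replicate 1. PABPC1 (ENSG00000070756), which binds the poly(A) tail, was at 0.07 (SE 0.27), which turned below 0 on library size alone. EIF4E (ENSG00000151247) itself was read too thinly to place: it had 82, 19 and 16 reads against 71, 70 and 5, and its log2 fold change of -0.12 had a SE of 1.44. EIF4EBP1 (ENSG00000187840), the inhibitor of eIF4E, had 118, 255 and 30 reads against 164, 300 and 371 and a log2 fold change of 0.92 (SE 0.72), from 0.53 without shscramble replicate 3 to 1.44 without replicate 2.

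**Figure D2:**
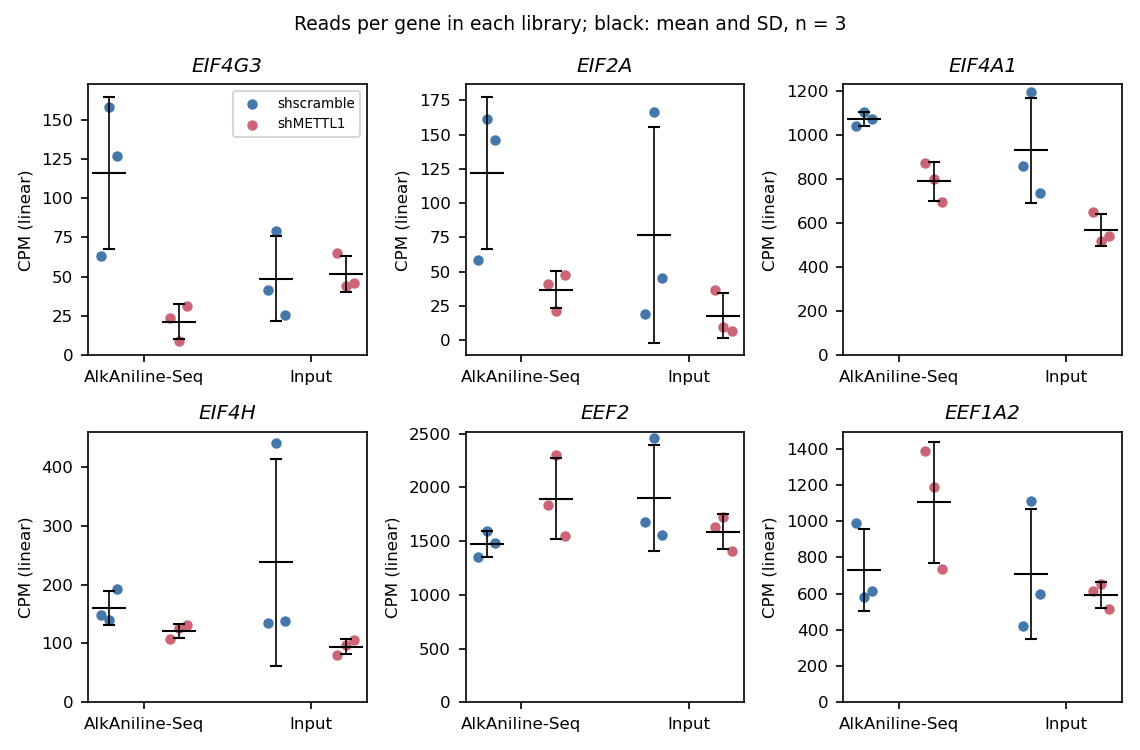
CPM per gene (vertical axes, linear, each gene on its own scale) in the AlkAniline-Seq and input libraries of shscramble and shMETTL1 (horizontal axes), with each library as a point and the mean and SD of 3 in black. EIF4A1 and EIF4H are lower in every shMETTL1 library than in any shscramble library in both assays, EIF4G3 in AlkAniline-Seq, while in the input 1 shscramble library of EIF4H stands at 440 CPM.

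The 13 eIF3 genes, subunits of the complex that holds the small ribosomal subunit and the mRNA together, ran from -0.77 (EIF3L) to 0.68 (EIF3C), with 8 above 0, a median of 0.06 and none past an unadjusted p of 0.05. EIF3A (ENSG00000107581), the large scaffold subunit, was at 526, 466 and 464 CPM in shscramble and 1055, 569 and 481 in shMETTL1. The difference rested on 1 library, and the log2 fold change was 0.53 (SE 0.33, adjusted p = 0.82 by edgeR), falling to 0.13 without shMETTL1 replicate 1. EIF3C has a near-identical neighbour, EIF3CL, and how reads matching both were assigned is not given in the sources used here, so its values are uncertain. The same caution applies to EEF1A1 and EIF5A, which have many processed copies in the genome.

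Of the 9 genes of start codon choice and subunit joining, EIF2A (ENSG00000144895), an initiator tRNA factor apart from the eIF2 complex, was lowest. It had 106, 430 and 206 AlkAniline-Seq reads in shscramble and 105, 53 and 112 in shMETTL1, or 58.3, 161 and 146 CPM against 41.0, 21.5 and 47.8. The groups did not overlap in CPM, although the lowest shscramble library lay close to the highest shMETTL1 library. The log2 fold change was -1.73 (SE 0.74, unadjusted p = 0.032, adjusted p = 0.68 by edgeR). Without shscramble replicate 1 it was -2.07 (adjusted p = 0.95 by edgeR), and with replicates left out in turn it ran from -2.07 to -1.44. The unadjusted p by edgeR was not under 0.05 without shscramble replicate 2 or 3 or without shMETTL1 replicate 2. Nor was it without the filter or with the replicate block. EIF2A kept such a p when any other replicate was left out. Its input reads ran in the same direction, at 59, 339 and 145 against 141, 32 and 21, with an overlap between the groups and a log2 fold change of -2.11 (SE 1.01, adjusted p = 0.77 by edgeR). This input value leaned on the library of 339 reads and was -0.86 without it. EIF2S1 (ENSG00000134001), the alpha subunit of eIF2 on which stress kinases act, was at 0.66 (SE 0.49). EIF1 (ENSG00000173812), which guards start codon choice, was at 0.46 (SE 0.34), from 0.27 without shMETTL1 replicate 2 to 0.81 without shscramble replicate 2. EIF1AX and EIF2S3 had libraries with fewer than 10 reads in at least 1 assay, and standard errors of 1.42 and 1.44.

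For termination, ETF1 (ENSG00000120705), which encodes the stop codon reader eRF1, had 57, 202 and 89 reads in shscramble and 171, 565 and 199 under shMETTL1, with a log2 fold change of 1.16 (SE 0.70, adjusted p = 0.81 by edgeR). In CPM the shMETTL1 libraries were at 66.7, 229 and 85.0 and the shscramble libraries at 31.3, 75.8 and 63.2, which overlapped. Without shMETTL1 replicate 2 the log2 fold change was 0.43. GSPT1 (ENSG00000103342), which encodes the GTPase eRF3, was at 243, 231 and 173 CPM against 186, 155 and 164. Its log2 fold change was -0.36 (SE 0.41). This turned to 0.06 once the position with the most reads was left out of every gene and the libraries were rescaled. Leaving out the position of GSPT1 alone was not tested.

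The libraries labelled as input of the same replicates were compared in the same way. No gene of 11740 was called by edgeR (0%), and 735 had an unadjusted p under 0.05 (6.26%), while DESeq2 called 35. Of the 41 translation factor genes none was called and 2, EIF4H and EIF4A1, had an unadjusted p under 0.05, both lower in shMETTL1. On library size alone neither did, at -0.87 and -0.35, and EIF4G2 and EIF3C did instead, both higher, against 4.05% of all genes. The input reads of EIF4A1 were 2706, 2428 and 2364 under shscramble and 2501, 1762 and 1628 under shMETTL1, or 857, 1193 and 736 CPM against 649, 516 and 538, which did not overlap. Its log2 fold change was -0.71 (SE 0.31, unadjusted p = 0.036, adjusted p = 0.77 by edgeR). EIF4H was at 135, 440 and 138 CPM against 81.0, 96.7 and 105, also without overlap, although its log2 fold change of -1.33 (SE 0.53, unadjusted p = 0.022, adjusted p = 0.77 by edgeR) drew on 1 shscramble library far above the others and was -0.54 without it. The groups did not overlap in the lower direction for 7 of 41 genes, against 5.84% of all genes, and in the higher direction for EIF3C alone, against 7.64%. The 7 were EEF1G, EIF4A1, EIF4E, EIF4H, EIF3D, EIF2S2 and EIF5B, and EEF1G, EIF4A1 and EIF4H thus stood apart in both assays. The share of all genes that did so in both assays was not counted. On library size alone EIF4A1 and EIF4H kept separate groups in the lower direction, 2 of 41 against 3.2% of all genes, and 3 genes had separate groups in the higher direction, against 10.5%. That scaling moved the median log2 fold change of all genes from -0.04 to 0.22 and that of the 41 from -0.16 to 0.15, so that relative to all genes the 41 stood at -0.12 and -0.08.

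The genes with a TOP start were described apart from the other matched genes. Their median log2 fold change was -0.21 in AlkAniline-Seq, with 5 of 11 above 0, and -0.36 in the input, with 3 of 11 above 0. The 20 matched genes without a TOP start had medians of 0.07, with 12 above 0, and 0.04, with 11 above 0. On library size alone the 4 medians were -0.32, -0.06, -0.05 and 0.41 in that order. The range of the TOP genes, from -1.73 (EIF2A) to 0.47 (EIF4A2) in AlkAniline-Seq, lay inside that of the others, from -2.44 (EIF4G3) to 1.16 (ETF1), and the difference between the sets was not tested.

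AlkAniline-Seq over input compared the scaled reads of each gene between the assays in each group. The ratio is relative to the other genes and does not measure a level of m7G. Over all genes, reads made up 6.28% to 7.07% of coverage in the AlkAniline-Seq libraries and 6.43% to 7.76% in the input libraries. In shscramble none of the 41 genes was called, against 82 of 12877 genes (0.637%), and 6 had an unadjusted p under 0.05, against 13.2% of all genes. EIF3E had more AlkAniline-Seq than input reads after scaling, and EIF3A, EIF3B, EIF6, EEF2 and EIF5A had fewer. This split depended on the scaling. On library size alone 5 genes had such a p, against 11.3% of all genes, with EIF3E, EIF3L, EIF4G2 and GSPT1 above 0 and EIF3A below, and the median of the 41 moved from -0.14 to 0.33, that of all genes moving from -0.08 to 0.30. Without shscramble replicate 1 there were 4, against 10.2% of all genes, the median of the 41 was 0.06, and 17 genes in all were called. In shMETTL1 none was called, against 27 genes (0.21%), and 4 had an unadjusted p under 0.05, all higher in AlkAniline-Seq, against 8.27% of all genes. These were EIF3E, EIF3F, EEF1A2 and EIF1. On library size alone, without the filter and with the replicate block, only EIF3E and EEF1A2 were higher at that p, and EIF5A was lower. The replicate block here pairs each AlkAniline-Seq library with the input of its replicate. In these settings 1049 of 12877, 1596 of 18569 and 915 of 12877 genes had such a p. In this paragraph EIF3B, EIF3E, EIF3F, EIF3L, EIF4G2 and EIF6 fall outside the rule for named genes and were named after their values were seen. EIF3E (ENSG00000104408) was past that level in both groups, with a log2 ratio of 0.81 (SE 0.37, adjusted p = 0.36 by edgeR) in shscramble and 1.39 (SE 0.37, adjusted p = 0.20 by edgeR) in shMETTL1. It had 890, 1591 and 1269 AlkAniline-Seq reads in shscramble and 1199, 1892 and 2182 in shMETTL1, against 785, 865 and 934 and 802, 923 and 900 input reads. In shscramble its ratio was 0.92 without replicate 1 and 0.42 without replicate 3. In neither case was the unadjusted p under 0.05 by edgeR, nor without shMETTL1 replicate 2 or 3, nor with DESeq2. EIF3E kept such a p in shscramble on library size alone, without the filter and with the replicate block. The same held without shscramble replicate 2 or shMETTL1 replicate 1. EIF3A had the lowest ratio of the 41 in shscramble, -1.50 (SE 0.46, adjusted p = 0.15 by edgeR), or -1.55 without replicate 1. Its input libraries were far apart, at 999, 2113 and 350 CPM against 526, 466 and 464 in AlkAniline-Seq, and without replicate 2 the ratio was -0.64. Without the filter on low counts EIF3A was called (adjusted p = 0.0020 by edgeR), as were 1.43% of all genes.

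**Figure D3:**
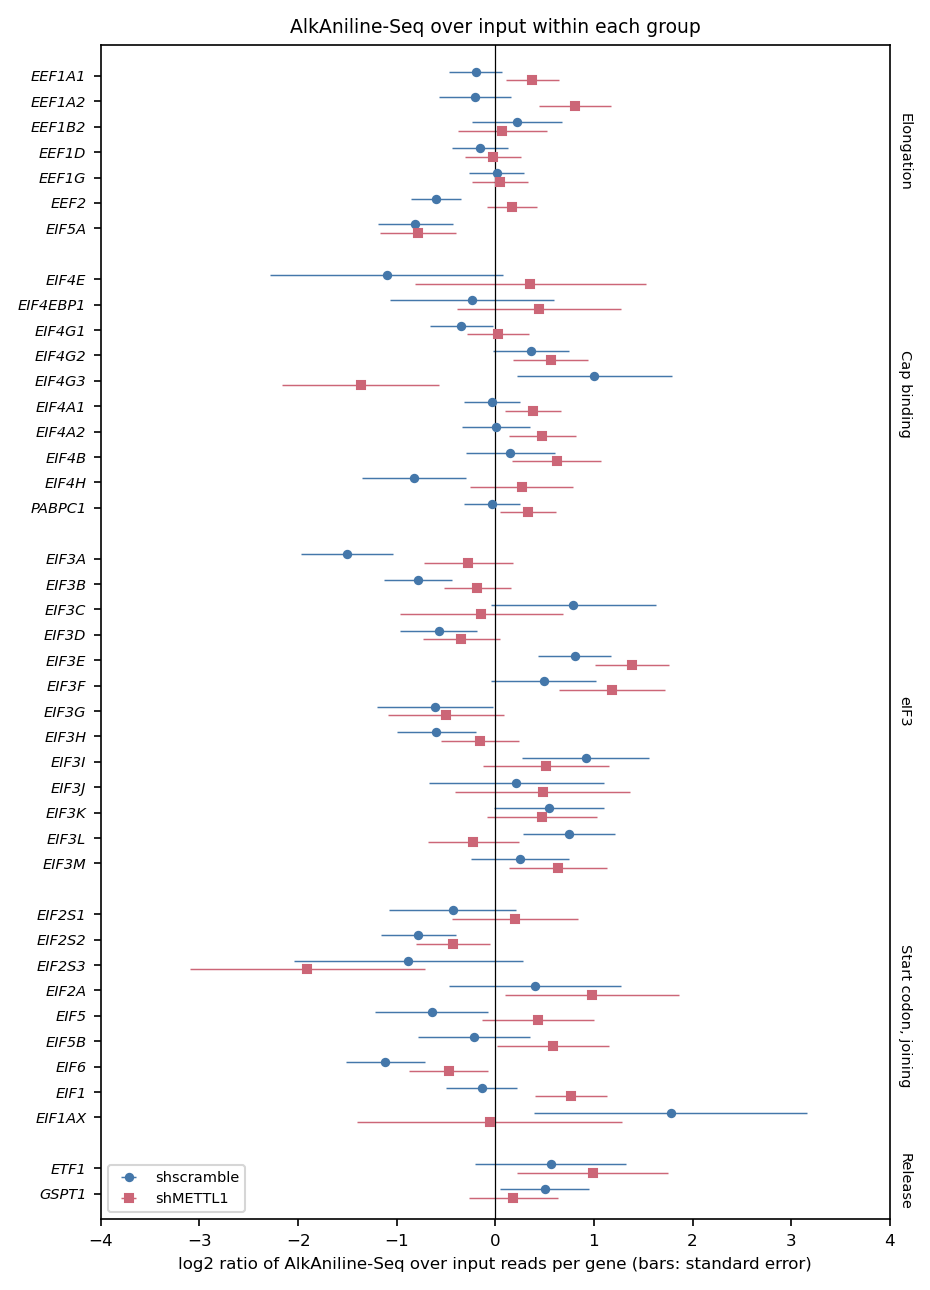
Log2 ratio of AlkAniline-Seq over input reads per gene (horizontal axis) in shscramble (circles) and shMETTL1 (squares) for the 41 genes by role (vertical axis), with standard errors as bars. EIF3E lies above 0 in both groups, at 0.81 and 1.39, and EIF3A lies at -1.50 in shscramble.

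The change of this ratio with the knockdown was tested as an interaction over all 12 libraries. None of the 41 genes was called by edgeR, against 1 of 12877 (0.00777%), and EEF2 and EIF4G3 had an unadjusted p under 0.05, against 8.35% of all genes. This fit did not pair a library with its own input. With that pairing, the replicate block, EEF2 alone had such a p, against 645 of 12877 genes. EEF2 had an interaction of 0.77 on the log2 scale (SE 0.36, unadjusted p = 0.043, adjusted p = 0.58 by edgeR), or 0.68 without replicate 1 of shscramble. This value joined the AlkAniline-Seq difference of 0.36 to an input difference of -0.26, the latter turning to 0.095 on library size alone, where the interaction was 0.16. The input reads were 5308, 5011 and 5014 under shscramble and 6299, 5871 and 4246 under shMETTL1. EIF4G3 had an interaction of -2.37 (SE 1.12, unadjusted p = 0.045, adjusted p = 0.59 by edgeR), which was -2.68 (SE 1.34) without replicate 1 of shscramble and no longer had an unadjusted p under 0.05. EIF4A1, lower in both assays, had an interaction of 0.41 (SE 0.40), which turned to -0.19 on library size alone. The median interaction of the 41 was 0.41, with 32 above 0 (78.0%), against 0.24 for all genes, of which 56.2% were above 0. On library size alone the medians became -0.21, with 12 of the 41 above 0 (29.3%), and -0.28, with 42.1% of all genes above 0. Relative to all genes the 41 thus stood at 0.18 and 0.07.

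Reads were also set against the coverage of the positions they came from. The count of the 41 genes together was 4.08% to 4.82% of their coverage in the AlkAniline-Seq libraries and 4.52% to 5.36% in the input libraries. Per gene, limma called none of the 41 and none of 9330 genes (0%), and 578 genes had an unadjusted p under 0.05 (6.2%). Among the 41 only EIF4G3 did. Its reads made up 20.9%, 39.0% and 59.7% of coverage in shscramble and 5.73%, 3.14% and 15.3% under shMETTL1, a difference of -2.47 on the log2 scale with 0.1 percentage points added (SE 0.73, adjusted p = 0.79 by limma), or -2.87 without shscramble replicate 1. The groups did not overlap. For EIF4A1 each shscramble share (3.67% to 4.17%) exceeded each shMETTL1 share (2.56% to 3.28%), a difference of -0.40 (SE 0.34). EEF2 shares also stood apart, at 3.82% to 4.36% against 3.52% to 3.77% (difference -0.14, SE 0.33). This was opposite in sign to the log2 fold change of EEF2 reads, 0.36. EEF1A2 shares overlapped, at 4.51% to 5.62% against 4.30% to 5.21%. How many genes stood apart in this measure was not counted. The median difference of the 41 was -0.20, with 12 above 0, against -0.12 for all genes, of which 43.6% were above 0.

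At single positions the reads of these genes were uneven. AlkAniline-Seq reads fell on 4130 positions, of which 44.9% were hit in a single library (1 of 6) and 189 in all 6, 124 of the latter also being read in all 6 input libraries. Over all genes 62.9% of positions were hit in a single library. The position with the most reads held 2.75% (EEF2) to 40.4% (EIF3E) of a gene's AlkAniline-Seq reads, with a median of 11.7%. Positions carry no coordinate and are given here by their number in the order in which the deposited values list them within the gene.

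The deepest position of each role group was a recurrent one in all but the release group. Position 91 of 180 in EIF3E had 415, 571 and 558 reads in shscramble and 477, 450 and 1176 in shMETTL1, with 155, 375, 338, 145, 354 and 404 in the inputs. Position 137 of 270 in EIF4A2 had 144, 633 and 482 against 15, 107 and 1657, and the last of these libraries is the one that lifted the whole gene. Position 141 of 233 in EEF1A2 had 416, 271 and 169 against 997, 456 and 159. The groups overlapped at each of these positions. Position 47 of 154 in EIF1 had 169, 268 and 85 against 196, 382 and 188. In GSPT1, by contrast, position 52 of 177 had 28, 220 and 1 reads against 0, 0 and 0. The shscramble excess of that gene drew in part on this position. Position 91 of 262 in EIF4A1, the deepest of that gene with 23.3% of its AlkAniline-Seq reads, had 410, 978 and 504 reads in shscramble and 349, 266 and 331 in shMETTL1, with every shscramble count above every shMETTL1 count (log2 fold change -1.07, SE 0.53, adjusted p = 0.68 by edgeR).

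EIF4G3 showed how a gene total can be built from few positions. Of its 151 listed positions 64 were read in AlkAniline-Seq, and 16 had at least 10 reads in shscramble replicate 2 or 3. No position reached 10 reads in both of these replicates, and 13 of the 16 had a read in replicate 1. The 16 held 97.4% of the reads of the gene in replicate 2, 91.1% in replicate 3 and 59.1% in replicate 1. The shares in replicates 2 and 3 are high by the choice of the positions. In the shMETTL1 replicates they held 10, 3 and 17 reads, which are low partly by the choice of the positions. Position 56 had 7, 90 and 0 reads in the shscramble replicates, position 38 had 10, 81 and 0, and position 29 had 10, 0 and 67. Each of these was deep in a single library and shallow in replicate 1.

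**Figure D4:**
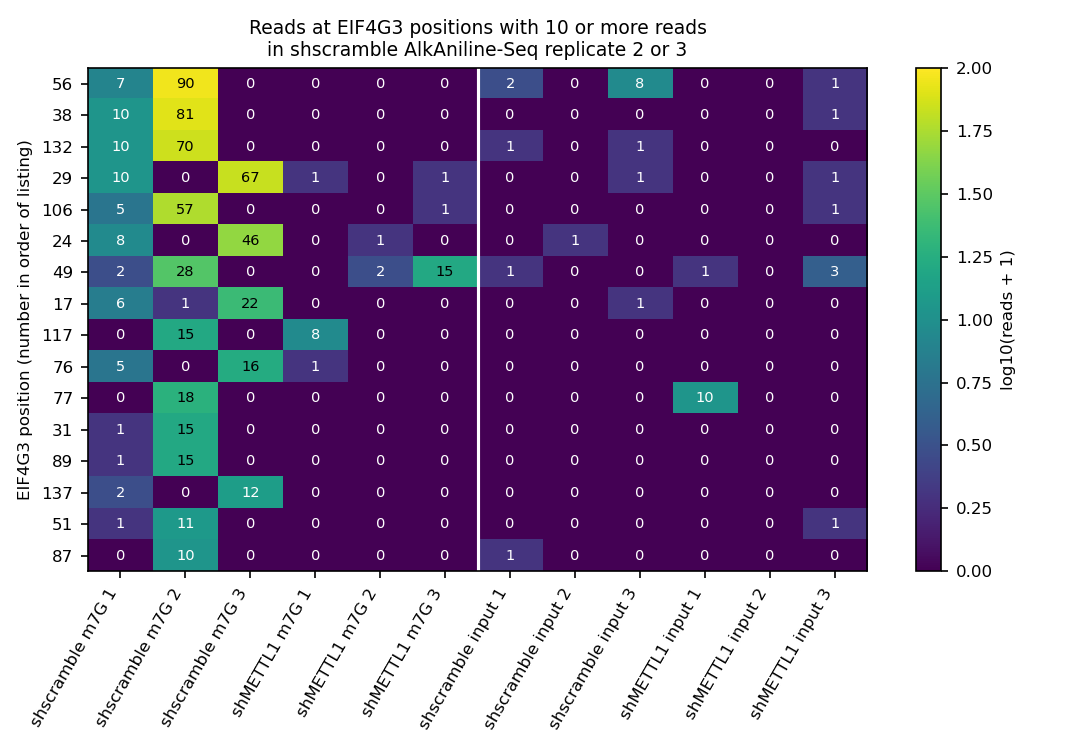
Reads (numbers, colour on a log10 scale of reads plus 1) at the 16 EIF4G3 positions with 10 or more reads in shscramble AlkAniline-Seq replicate 2 or 3 (vertical axis, by order of listing) in the 12 libraries (horizontal axis). No position is at 10 or more in both replicates, and 13 of the 16 have a read in replicate 1.

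Per position, 378 positions in 33 of the 41 genes passed the filter on low counts, which a position may pass through reads in 1 group alone. None was called by edgeR, as was none of the 13973 positions tested (0%), and 21 had an unadjusted p under 0.05, 3 higher and 18 lower in shMETTL1, against 8.19% of all positions, which were themselves 262 higher and 883 lower. The split changed with the positions and libraries used. Among the 189 positions read in all 6 libraries 14 were higher and 10 lower at that p, against 9.76% of all such positions, and without shMETTL1 replicate 1 there were 32 higher and 5 lower of 669, against 4.57%. DESeq2 called 12 of the 378, 3 higher and 9 lower, against 5.1% of all positions. Without shscramble replicate 3 edgeR called 59 of 677 positions of these genes, 57 of them lower, against 19% of all positions, while it called none of 550 without shscramble replicate 1 and none of 630 without replicate 2. Replicate 1 had reads at the deep positions of both other replicates, and the part of this in the calls was not tested.

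The 10 positions of lowest p are given as a description, since most passed the filter only through the group where they were high, and their directions support nothing. Position 18 of 262 in EIF4A1 was higher in shMETTL1, with 0, 1 and 0 reads in shscramble and 74, 126 and 93 in shMETTL1, and 2 reads or fewer in every input (log2 fold change 7.80, SE 2.12, unadjusted p = 0.0027, adjusted p = 0.31 by edgeR and 0.0015 by DESeq2). It ran against the total of its gene and against the deepest position of that gene. PABPC1 position 180 of 300 had 140, 51 and 70 reads against 4, 0 and 2 (adjusted p = 0.36 by edgeR and 0.0061 by DESeq2). EIF5A position 105 of 120 had 64, 44 and 29 reads against 0, 1 and 0 (adjusted p = 0.36 by edgeR and 0.014 by DESeq2). These last positions were read in all 3 shscramble libraries, with replicate 1 the deepest. EIF4G2 position 21 of 279 had 19, 71 and 59 reads against 1, 0 and 0 and no read in any input. EIF3I position 37 of 71 had 24, 213 and 22 against 0, 1 and 0, EEF2 position 270 of 586 had 17, 13 and 100 against 0, 0 and 0, and EIF3F position 43 of 74 had 16, 13 and 72 against 0, 0 and 0. In these the reads came mostly from 1 shscramble library. EIF3L position 44 of 131 had 15, 71 and 21 reads against 0, 0 and 0, but its inputs had 0, 1 and 5 in shscramble and 20, 60 and 48 in shMETTL1, the opposite order. EEF1D position 26 of 299 had 8, 29 and 38 reads against 0, 0 and 0, with inputs of 3, 2 and 11 against 21, 49 and 23. EIF5A position 97 of 120 had 8, 40 and 31 reads against 0, 0 and 0.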

How the data were processed

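AlkAniline-Seq and input libraries of LNCaP-AI cells, 3 replicates of shscramble and of shMETTL1, were compared. The authors deposited, for each position, the read count and the coverage signal with an Ensembl gene ID. Named in the submitters' processing notes are hg19, Bowtie2 2.2.4, cutadapt 1.9.1 and bedtools 2.24. The handling of strand and of multiple matches, like the gene annotation, is not given there or in the methods. Deposited ratio and fold columns were not used. Symbols of the 41 genes came with the list, and the members and lists were chosen with earlier results of these data known.

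Counts were summed per gene ID and tested by the quasi-likelihood method of edgeR 4.0.16 (R 4.3.3) after TMM scaling and filterByExpr (count of at least 10, total of at least 15; Benjamini-Hochberg adjustment over all genes or positions, threshold 0.05). AlkAniline-Seq and input were fitted apart, and together over the 12 libraries for the ratio to input and its interaction. The main fit over 12 libraries did not pair a library with its own input, and the replicate block did. The overlap of groups on library size alone was added after seeing the data. Counts as percent of coverage (coverage of at least 10, pseudocount 0.1) were tested with limma 3.58.1. DESeq2 1.42.0 and the methods' t-test were alternatives. With 3 against 3 an exact permutation test cannot go below 0.1. Scripts were tested on simulated data. Tables and figures were made with Python 3.11.15, pandas 2.3.3 and matplotlib 3.10.9. Genes were named if the unadjusted p was under 0.05 in AlkAniline-Seq, input or the interaction, if they had the most reads of their role group, or as core factors; positions if deepest of a role group or among the 10 of lowest p. The list of other translation-pathway genes, METTL1 and cell type markers could not be looked up here.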

Additional observations from a re-analysis of the deposited data

How the results depend on the processing

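Of the translation factor genes, edgeR called none in AlkAniline-Seq, input, interaction or ratio to input under the alternatives run, save for the ratio to input in shscramble without a filter (1 gene, EIF3A). DESeq2 called 1 gene (EIF4G3) in AlkAniline-Seq and 12 positions. Over all genes, AlkAniline-Seq calls numbered 178 with DESeq2, 2 on library size, 19 without a filter, 3 with the replicate block, and 0 without the top position and with the methods' t-test. Input calls were 35 with DESeq2, 95 without a filter and 2 with the replicate block. Interaction calls were 96 with DESeq2 and 31 without a filter. Calls over input were 569 with DESeq2 and 266 without a filter in shscramble. In shMETTL1 they were 112 with DESeq2, 57 on library size, 104 without a filter and 69 with the replicate block. Position calls were 713 with DESeq2, 1 among positions read in all 6 libraries and 6 with the replicate block. Leaving out 1 replicate at a time gave 0 to 3 AlkAniline-Seq calls, 0 to 1 interaction calls, 17 to 75 calls over input in shscramble, 1 to 82 in shMETTL1, 0 to 1 calls for percent of coverage, 3 to 5644 position calls and 0 to 59 positions of these genes, the highest without shscramble replicate 3.

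Directions turned as follows, the cause not being tested. In AlkAniline-Seq, EEF1A1 turned to -0.054 and PABPC1 to -0.033 on library size. With replicates left out, EEF1A1 ran from -0.011 to 0.15, PABPC1 from -0.043 to 0.20 and EIF4E from -0.50 to 1.06. GSPT1 turned to 0.061 when the top position of every gene was left out. In the input, EIF4G3 turned to -0.27 with DESeq2 and ran from -0.24 to 0.62 with replicates left out, and EEF2 turned to 0.095 on library size. For the interaction, EIF2A turned to -0.27 and EIF4A1 to -0.19 on library size, and EIF2A ran from -0.50 to 1.57 with replicates left out. Same-numbered libraries of the groups had deviations correlated at -0.03 to 0.06. In the fits of a single assay the replicate block is thus a number shared and not a pairing. In the fits over 12 libraries the block paired each AlkAniline-Seq library with the input of its replicate, which those correlations do not address. The block changed no call of these genes, but it changed which had an unadjusted p under 0.05 by edgeR. In simulated counts of 9896 positions, 1 of 34 tested positions was recovered at a fold of 8 and 6 of 30 at a fold of 16, which limits what single positions can show. The changed positions were drawn from those of all genes.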
